A study of Homo sapiens with 12 samples.

Results

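Regions of the genome that carried an H3K4me2 peak after all-trans retinoic acid (ATRA) and not after Corin, or after Corin and not after ATRA, were taken from the peak lists of these 2 treatments. Peaks of the lists that shared at least 1 bp were merged, which gave 75982 regions. Of these, 50891 held peaks of both lists and are called shared. An ATRA peak only was found in 9279 regions (12.2%), called ATRA-only, and a Corin peak only in 15812 (20.8%), called Corin-only. Together these 25091 one-list regions are the subject of the text, out of 84588 regions that carried a peak in any list of the series.

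The cells were U-937, an established human myeloid leukaemia line with monocytic features. ATRA was given at 0.1 µM and Corin at 0.1 µM, each alone for 24 hours. The DMSO vehicle list and the list of cells given both drugs at 0.1 µM each were used only to place the one-list regions. The labels give no genetic change in any group, and each treatment had 2 H3K4me2 libraries and 1 input library. Each treatment is 1 peak list over its libraries, so no spread between replicates can be given, no test between treatments was made, and every difference is one between lists. Ranges in brackets are Wilson intervals at 95%, which reflect counting error alone.

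H3K4me2 is a methylation mark on histone H3 that lies at active and poised enhancers and beside promoters. ATRA binds retinoic acid receptors, which sit with their RXR partners on DNA and exchange co-repressors for co-activators such as p300, and it drives myeloid leukaemia cells towards maturation. Corin is a synthetic inhibitor with one arm against the demethylase LSD1, which removes methyl groups from H3K4, and one against the histone deacetylases HDAC1 and HDAC2, its partners in the CoREST complex. In myeloid cells LSD1 and CoREST are brought to DNA by factors such as GFI1.

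Start sites of monocytic genes served as a check of the cell type. Of 8 such genes, 6 had the start site under an ATRA peak and 7 under a Corin peak, and MPO, which encodes myeloperoxidase, had none in either list. Start sites of the 3 erythroid and the 3 epithelial genes looked at lay under no peak of either list. Of the 3 T cell genes CD2 lay under an ATRA peak. The ATRA list held 66385 peaks and the Corin list 73997. The lowest background recovered from the deposited fold and p-values, taken as a measure of H3K4me2 depth, was 1.08 times as high for Corin as for ATRA, while the fragments at a peak summit numbered 40 at the median for Corin and 47 for ATRA. Peaks are numbered by strength, and 12.9% of the numbers of the ATRA list and 12.8% of those of the Corin list are not in use, so a region counted as lacking a peak may hold one that was left out. Only 16 of the 30000 lowest numbers were unused for ATRA and 22 for Corin.

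The sequences below show what the classes look like at the base level. They are windows of 200 bp around summits (hg38, plus strand) of regions over 2.5 kb from any start site and free of exons, each picked because its window held a match to 1 motif discussed further on. Ranked by −log10 q, they are the 2 strongest ATRA-only regions with a PU.1 match in the window, the strongest ATRA-only one with an IRF match and the 2 strongest Corin-only ones with an AP-1 match. Stronger regions without these matches are described further on. Capitals mark motif matches: PU.1 is GAGGAAG, AP-1 is TGANTCA, GFI1 is AAATCA, C/EBP is TTGCNNAA and IRF is a pair of GAAA blocks with 2 bases between them, on either strand. The first ATRA-only window, chr20:17843386-17843585, lies outside genes, 124684 bp from an SNX5 start site, and holds a PU.1 match. The next, chr17:2174999-2175198, lies in an intron with SMG6 as the gene of the nearest protein-coding start site and also holds a PU.1 match. The other ATRA-only window, chr4:102454646-102454845, lies outside genes, 46100 bp from an NFKB1 start site, and holds an IRF match. The Corin-only windows are chr20:45453299-45453498, in an intron 15934 bp from the WFDC2 start site, and chr19:39073776-39073975, outside genes and 10148 bp from the ACP7 start site. Both hold an AP-1 match, the WFDC2 window also a C/EBP match and the ACP7 window also a GFI1 match.
ATRA-only, SNX5 side: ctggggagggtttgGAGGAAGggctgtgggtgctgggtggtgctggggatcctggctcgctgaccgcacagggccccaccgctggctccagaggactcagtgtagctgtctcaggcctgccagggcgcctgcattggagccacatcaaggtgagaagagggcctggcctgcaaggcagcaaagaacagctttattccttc
ATRA-only, SMG6 side: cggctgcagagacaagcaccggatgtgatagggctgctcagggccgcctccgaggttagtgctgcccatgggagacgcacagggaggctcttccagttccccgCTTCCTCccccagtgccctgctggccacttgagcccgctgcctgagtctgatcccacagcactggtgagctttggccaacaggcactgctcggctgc
ATRA-only, NFKB1 side: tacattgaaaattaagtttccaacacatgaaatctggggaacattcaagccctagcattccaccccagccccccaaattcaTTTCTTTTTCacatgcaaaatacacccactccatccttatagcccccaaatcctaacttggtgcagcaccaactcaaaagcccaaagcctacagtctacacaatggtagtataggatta
Corin-only, WFDC2 side: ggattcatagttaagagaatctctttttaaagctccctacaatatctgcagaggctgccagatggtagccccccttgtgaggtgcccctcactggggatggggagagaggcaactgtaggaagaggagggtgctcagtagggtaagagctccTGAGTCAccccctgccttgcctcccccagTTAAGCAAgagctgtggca
Corin-only, ACP7 side: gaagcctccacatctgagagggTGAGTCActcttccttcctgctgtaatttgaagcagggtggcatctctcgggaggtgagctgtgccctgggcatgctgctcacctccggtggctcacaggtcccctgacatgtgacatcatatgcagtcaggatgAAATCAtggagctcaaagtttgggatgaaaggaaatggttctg

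One-list regions were narrow and mostly lay away from promoters. The median width was 329 bp for ATRA-only and 346 bp for Corin-only regions, compared with 1418 bp for shared regions. Introns held 54.9% of the ATRA-only (53.9 to 55.9%) and 59.8% of the Corin-only regions (59.03 to 60.6%), compared with 34.3% of the shared ones. Exons over 1 kb from a start site were overlapped by 8.92% of the ATRA-only and 6.65% of the Corin-only regions. Regions outside genes made up 29.5% and 28.2%. Within 1 kb of a start site were 6.72% of the ATRA-only (6.23 to 7.25%) and 5.39% of the Corin-only regions (5.05 to 5.76%), compared with 34.3% of the shared ones.

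Distance to start sites differed between the classes, to a degree that depended on how peaks were merged. The median distance to the nearest protein-coding or lncRNA start site was 15997 bp for ATRA-only and 11546.5 bp for Corin-only regions, compared with 6596 bp for shared regions. With peaks within 1 kb merged, the medians of the one-list classes were close, at 17860 and 17050 bp. The Corin-only share of all merged regions depended strongly on this distance. Between 1 and 2.5 kb from a start site, 37.6% of the 4680 regions were Corin-only (36.3 to 39.03%) and 12.1% ATRA-only (11.1 to 13.02%). Over 100 kb away the shares were 24.6% and 17.7%, and among the 13160 regions that covered a start site they were 1.505% and 1.14%. The order of the classes near start sites therefore depended on the window, since a window of 2.5 kb took in 16.5% of the Corin-only and 12.8% of the ATRA-only regions. In the band from 1 to 2.5 kb, Corin-only regions made up 43.7% of the regions downstream of the start site (41.8 to 45.7%) and 30.6% of those upstream (28.7 to 32.6%). The ATRA-only shares there were 11.2% and 13.1%.

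**Figure D1:**
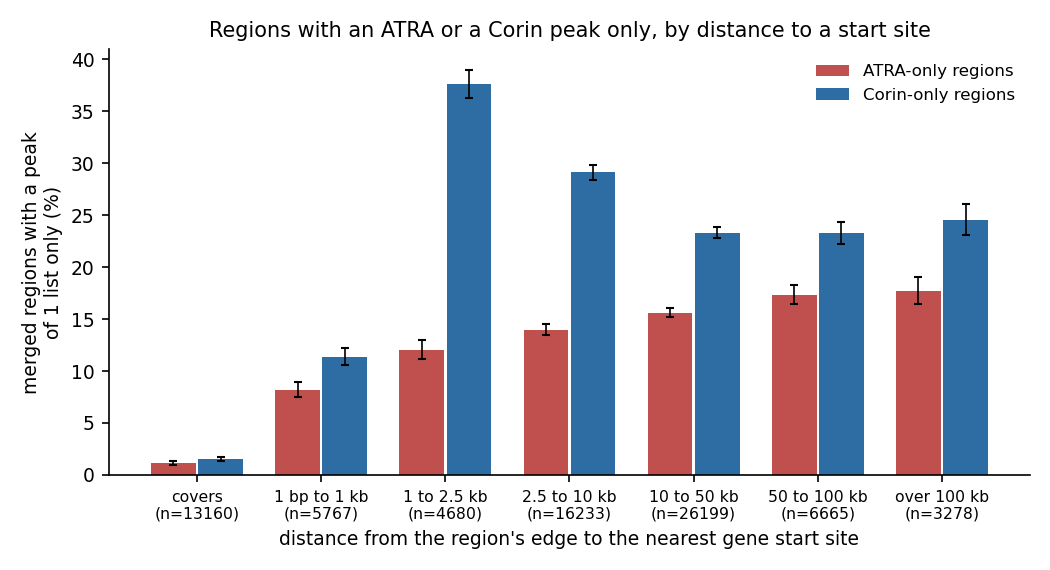
Share of merged regions that held an ATRA peak only (red) or a Corin peak only (blue), in % of the regions of each distance class, against the distance from the region's edge to the nearest start site; error bars are 95% Wilson intervals. The blue bar is highest between 1 and 2.5 kb, at 37.6%, while the red bars rise from 1.14% over start sites to 17.7% over 100 kb away.

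Most one-list regions were weak peaks. The −log10 q, the authors' peak strength, had a median of 4.84 in ATRA-only and 3.92 in Corin-only regions, within lists whose shared regions had medians of 34.2 and 23.5. Of the ATRA-only regions 31 were stronger than the median shared region of the ATRA list, and of the Corin-only regions 123 were stronger than that of the Corin list. The fragments at the summit, recovered from the deposited fold and p-values, numbered 21 at the median for the ATRA-only and 20 for the Corin-only peaks, over a background of 3.42 and 3.72. At or above a −log10 q of 20 were 190 ATRA-only and 216 Corin-only regions, and at or above 50 were 11 and 5. Which class was larger depended on how the lists were cut. With the same number of peaks in both lists, 11265 regions were ATRA-only and 10971 Corin-only, and with the Corin fragments thinned until the lowest backgrounds of the lists were equal, the numbers were 9246 and 14092. Corin-only regions more often had a peak of the other list close by: the nearest one lay within 1 kb of 37.6% of them and of 29.9% of the ATRA-only regions.

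The DMSO and combination lists placed the classes differently. A DMSO peak was present in 31.1% of the ATRA-only regions (30.2 to 32.1%) and in 17.5% of the Corin-only regions (16.9 to 18.1%), compared with 90.01% of the shared regions. A peak of the combination list was present in 64.2% (63.2 to 65.1%) and 70.3% (69.6 to 71.002%). The largest group in each class had a combination peak and no DMSO peak, with 42.5% of the ATRA-only and 57.0% of the Corin-only regions. Present in DMSO and absent from the combination were 9.42% of the ATRA-only and 4.20% of the Corin-only regions. These 874 ATRA-only regions lay within 1 kb of a start site in 12.1% of cases (10.1 to 14.5%), above the 4.997% of the ATRA-only regions with a combination peak and no DMSO peak (4.36 to 5.72%). Neither of the 2 lists had a peak in 26.4% and 25.5%.

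**Figure D2:**
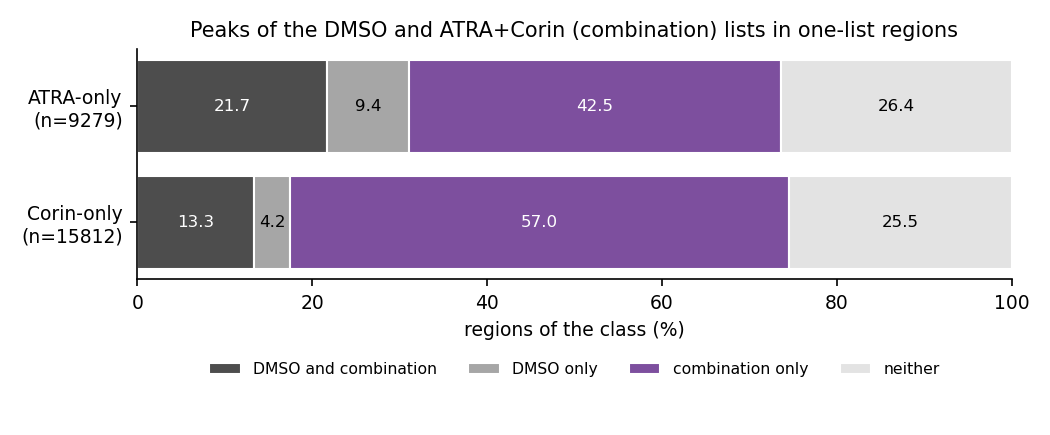
Share of the 9279 ATRA-only and the 15812 Corin-only regions, in % of each class, with a peak of the DMSO list, the combination list (ATRA+Corin), both or neither. The segment with a combination peak and no DMSO peak is the widest in both bars, at 42.5% and 57.0%, and the parts with a DMSO peak are wider for ATRA-only regions.

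The start sites themselves showed a different pattern from the regions around them. Of 19951 protein-coding start sites, 2368 lay under an ATRA peak and no Corin peak (11.9%), and 366 lay under a Corin peak and no ATRA peak (1.83%). Both lists covered 7222 and neither covered 9995. Of the 2368 sites covered with ATRA only, 94.8% had Corin peaks within 1 kb on both sides, so the Corin peaks there flanked the site. The ATRA peaks likewise flanked most of the 366 sites covered with Corin only, with ATRA peaks on both sides at 265 of them (72.4%). A DMSO peak covered 72.4% of these 2368 sites and a combination peak 37.4%. The ATRA list covered 48.1% of all start sites at the site itself (47.4 to 48.8%) and the Corin list 38.03% (37.4 to 38.7%). At 2 kb into the gene the order was the opposite, with 24.9% under an ATRA peak and 35.3% under a Corin peak. At 2 kb upstream the shares were 14.3% and 18.9%, and at 500 bp into the gene they were 57.04% and 56.4%.

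**Figure D3:**
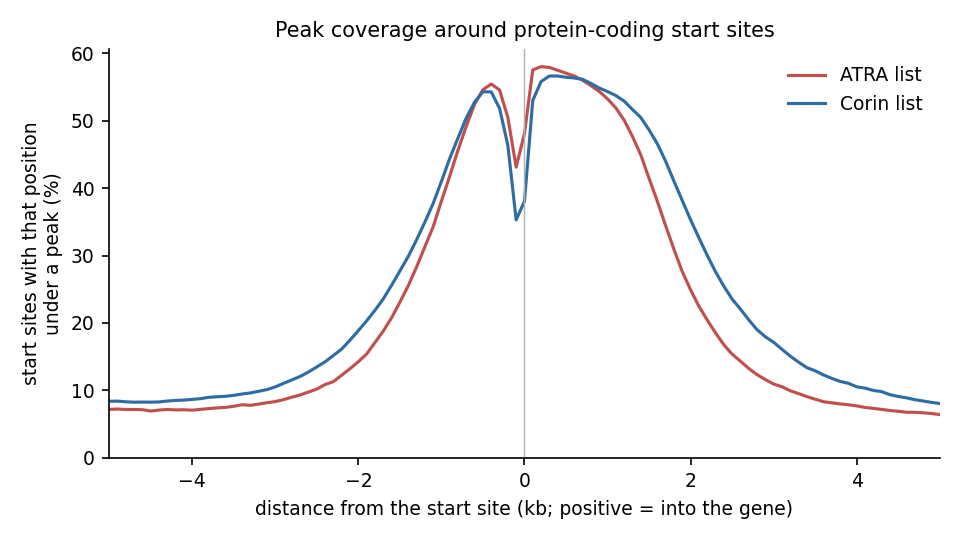
Share of 19951 protein-coding start sites, in %, with a peak of the ATRA list (red) or the Corin list (blue) at each distance from the start site in kb, positive into the gene. The blue curve lies below the red one at the start site (38.03% against 48.1%) and above it at 2 kb on either side.

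Inside shared regions the peaks also differed in extent. The length under a Corin peak and no ATRA peak came to 14.7 Mb and that under an ATRA peak and no Corin peak to 6.58 Mb, beside 73.4 Mb under both. Within 1 kb of a start site lay 21.2% of the ATRA length and 9.31% of the Corin length. Where a shared region held 1 peak of each list, the Corin peak was the wider in 63.02% of 40063 regions, with medians of 1105 and 999 bp. Over protein-coding start sites it was the wider in 74.8% of 6901 such regions. Of all 10842 shared regions over a coding start site, 21.2% held more Corin than ATRA peaks and 11.5% more ATRA than Corin peaks.

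The strongest ATRA-only region lay at chr6:132797974-132799224 over the start site of SLC18B1, a vesicular amine transporter family member. Its −log10 q was 273 with ATRA and 126 with DMSO, its fold enrichment 59.3 and 24.2, and it had no peak in the Corin or combination list. Its nearest Corin peak was 13125 bp away. At chr15:67041280-67043581, in a lncRNA intron 22021 bp from a start site of SMAD3, a TGF-β signal transducer, the −log10 q was 144 with ATRA, 112 with DMSO and 163 with both drugs. Another, at chr15:52092558-52096229, lay in a lncRNA intron 16539 bp from the start site of BCL2L10, an apoptosis regulator of the BCL2 family. It had a −log10 q of 104 with ATRA, 47.3 with DMSO and 48.7 with both drugs, and a Corin peak ended 207 bp away. These 3 regions thus had peaks in DMSO cells as well, and in the SMAD3 and BCL2L10 regions the Corin list was the only one without a peak. Whether a Corin peak there was among those left out of the list was not tested.

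The next ATRA-only regions included one with no DMSO peak. At chr19:41584566-41587073, over an exon of CEACAM21 of the carcinoembryonic antigen family, the −log10 q was 89.01 with ATRA and 30.1 with both drugs. At chr9:92536953-92538216, within CENPP, a kinetochore gene, and 861 bp from the start site of ECM2, it was 79.8 with ATRA, 25.3 with DMSO and 26.9 with both drugs. In an intron of CARS2, the mitochondrial cysteinyl-tRNA synthetase gene, at chr13:110665922-110666758, it was 69.9 with ATRA, 8.42 with DMSO and 31.0 with both drugs. Over start sites, the SLC18B1 region was followed by chr18:63897052-63897719 over the start site of ENSG00000289724. This region also overlaps an exon of SERPINB2, which encodes the plasminogen activator inhibitor PAI-2 of monocytes. Its −log10 q was 39.4 with ATRA and 4.57 with both drugs, with no DMSO peak. A region over a start site of PLCG2, a phospholipase downstream of immune receptors, at chr16:81842020-81843635, had a −log10 q of 35.6 with ATRA, 2.24 with DMSO and 12.3 with both drugs. A region over NBPF15, at chr1:144461055-144461671, had 31.7 with ATRA and 9.22 with DMSO. NBPF15 belongs to a multicopy family, so reads there may be shared between copies.

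The 6 strongest Corin-only regions all carried a peak in the combination list, and 1 of them had a DMSO peak. The strongest lay at chr20:49510446-49511506 over an exon of PTGIS, the prostacyclin synthase gene, with a −log10 q of 102 with Corin, 128 with both drugs and 5.72 with DMSO. Over the start site of PI16, a peptidase inhibitor gene, at chr6:36953472-36956601, it was 100.4 with Corin and 185 with both drugs. Over an exon of CTCFL, the germline paralogue of CTCF, at chr20:57502566-57503814, it was 96.8 and 85.6. The other 3 lay over an exon of CRTC3, a CREB co-activator gene, in an intron of PPARD, a fatty acid-sensing nuclear receptor gene, and over an exon of the lncRNA SRP14-DT. Their −log10 q values with Corin were 50.8, 50.02 and 48.6. With both drugs they were 92.6, 92.7 and 5.67. None of these 3 regions had a DMSO peak.

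Over start sites, the Corin-only regions after PI16 belonged to KCNAB2, AKNA and DNM3. At KCNAB2, a potassium channel subunit gene, the region chr1:6034647-6039253 had a −log10 q of 47.9 with Corin, 6.37 with DMSO and 23.5 with both drugs. At AKNA, which encodes an AT-hook protein of lymphoid and myeloid cells, chr9:114394294-114396226 had 34.7 with Corin and 104 with both drugs. At DNM3, a dynamin gene, chr1:171817444-171818643 had 30.2 with Corin and 5.60 with both drugs. An ATRA peak lay 745 bp from the AKNA region and 9190 bp from the DNM3 region.

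Genes differed in how many one-list regions lay within 50 kb of their start site. A region counted for a gene need not lie within that gene. Over all protein-coding genes the mean was 0.541 ATRA-only and 1.07 Corin-only regions per gene. At least 1 ATRA-only region was found at 35.4% of the genes and at least 1 Corin-only region at 52.2%. More Corin-only than ATRA-only regions were found at 39.2% and more ATRA-only at 16.8%. An excess of 5 or more Corin-only regions was found at 450 genes and one of 5 or more ATRA-only regions at 35. By chromosome, the ATRA-only share of regions ran from 7.59% on chromosome 19 to 15.03% on chromosome 21, and the Corin-only share from 17.8% on chromosome 21 to 24.2% on chromosome 13.

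MBNL1, which encodes a splicing regulator, had the largest Corin-only excess, with 22 Corin-only and 0 ATRA-only regions. Of the 22, 21 lay within the gene, 19 also had a combination peak and 1 a DMSO peak. Their −log10 q ran from 1.21 to 19.2 and their widths from 168 to 2209 bp. Peaks covered 16.7 kb of the 100 kb window in DMSO, 18.2 kb with ATRA, 39.1 kb with Corin and 45.8 kb with both drugs. The Corin and combination lists thus covered far more of this locus than the DMSO and ATRA lists. ELF1, an ETS factor gene of blood cells, had 17 Corin-only and 0 ATRA-only regions, all 17 within the gene and 12 of them with a combination peak. Its window was covered over 20.8 kb in DMSO, 23.03 kb with ATRA, 45.7 kb with Corin and 43.7 kb with both drugs. At the ELF1 start site itself the order was the opposite, since it lay under an ATRA peak and no Corin peak. For MBNL1 the summit window of the strongest of these regions outside exons is shown, chr3:152260172-152260371. Capitals mark a C/EBP match and a match to the nuclear receptor motif AGGTCA.
MBNL1, Corin-only: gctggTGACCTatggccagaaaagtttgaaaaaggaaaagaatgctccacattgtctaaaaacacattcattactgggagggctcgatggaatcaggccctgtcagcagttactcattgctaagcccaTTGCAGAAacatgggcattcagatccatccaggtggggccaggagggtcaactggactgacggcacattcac

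The other genes with the largest Corin-only excess were TNFAIP8, an apoptosis regulator gene induced by TNF (14 Corin-only regions), IL17RA, the receptor gene of interleukin 17 (13), ENSG00000288716 (12) and FNDC3B (12). All 4 had 0 ATRA-only regions. At FNDC3B the covered length was 11.4 kb in DMSO, 11.3 kb with ATRA, 30.3 kb with Corin and 23.7 kb with both drugs. The strongest Corin-only region of IL17RA had a −log10 q of 22.4, and those of TNFAIP8 and FNDC3B reached 7.17 and 6.32. In these loci many weak peaks lay side by side.

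BMI1, a Polycomb gene needed for stem cell self-renewal, led the genes with an ATRA-only excess, with 11 ATRA-only and 3 Corin-only regions. Its ATRA-only regions had a −log10 q from 3.30 to 14.2, and 8 of the 11 had a combination peak and 5 a DMSO peak. Of the 11, 5 lay within BMI1. The covered length was 16.9 kb in DMSO, 24.9 kb with ATRA, 13.2 kb with Corin and 23.8 kb with both drugs, so the Corin list was the lowest. GOLGA8M and POR followed with 7 ATRA-only regions each, against 0 and 1 Corin-only. GOLGA8M lies in a multicopy family where reads may be shared between copies. At POR, the electron donor gene of cytochrome P450 enzymes, the −log10 q of ATRA-only regions reached 52.3. It covered 11.3 kb in DMSO, 17.6 kb with ATRA, 13.9 kb with Corin and 24.03 kb with both drugs. ENSG00000269179 had 8 against 2, and IRF2, an interferon regulatory factor gene, had 6 against 0. Of the 6 at IRF2, 1 lay within the gene.

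**Figure D4:**
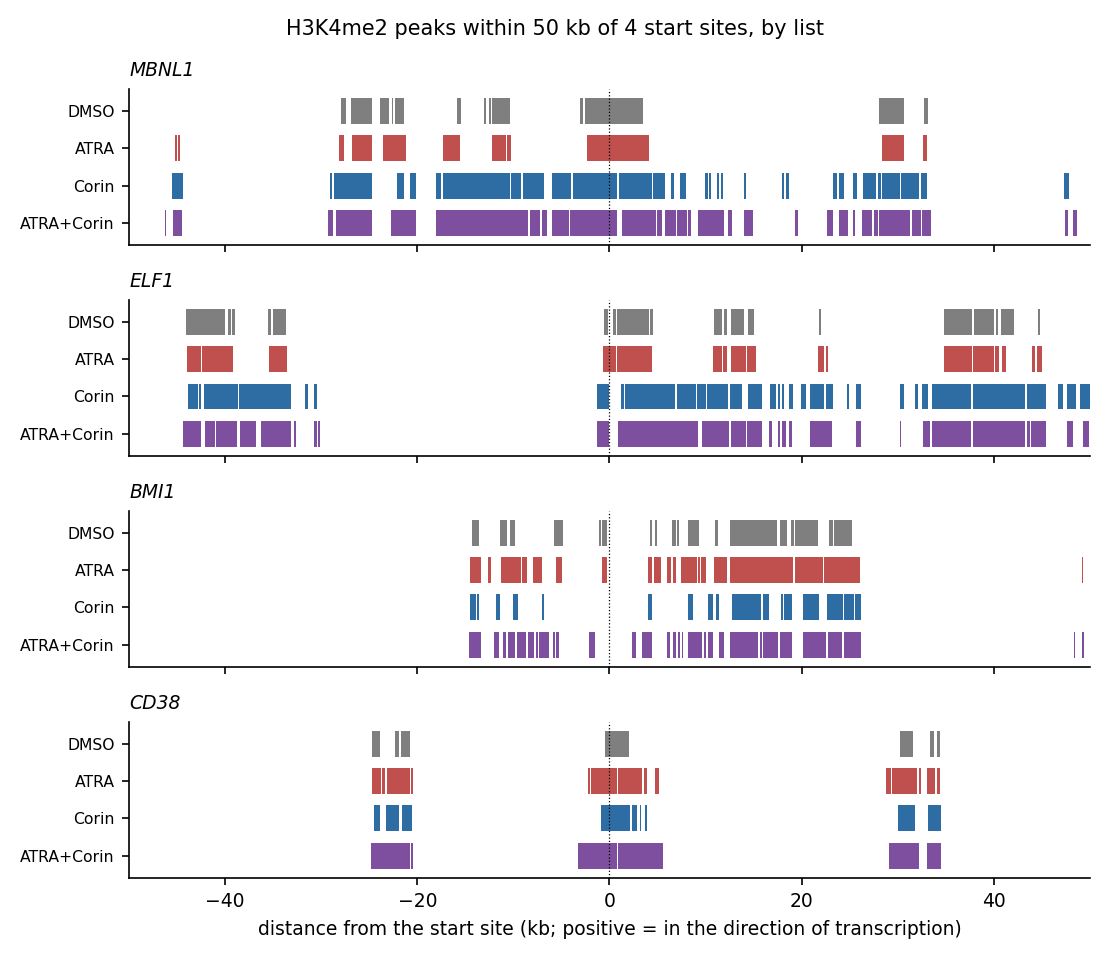
Peaks of the DMSO, ATRA, Corin and combination (ATRA+Corin) lists, as boxes, within 50 kb of the start sites of MBNL1, ELF1, BMI1 and CD38, against the distance from the start site in kb in the direction of transcription. Corin and combination boxes fill more of the MBNL1 and ELF1 windows, ATRA boxes fill more of the BMI1 window than Corin boxes, and the ATRA boxes at CD38 include 5 regions with no Corin peak.

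Genes of 7 lists were then counted in the same windows. Counts are sums over genes, so a region near 2 listed genes counts for each. Over all protein-coding genes 66.3% of such counts were Corin-only (65.8 to 66.9%), and each list is to be read against that share. The 16 retinoid response genes had 23 ATRA-only and 19 Corin-only regions, or a mean of 1.44 and 1.19 per gene. The Corin-only share was 45.2% (31.2 to 60.1%). More ATRA-only regions were found at 6 of them (37.5%, beside 16.8% of all genes) and more Corin-only at 5. The mean number of shared regions was 5.75 per gene, beside 4.21 over all genes. CD38, an ectoenzyme gene known for its induction by retinoids, had 5 ATRA-only and 0 Corin-only regions. These 5 had a −log10 q of 2.10 to 6.51, none had a DMSO peak and all 5 had a combination peak. The covered length at CD38 was 6.92 kb in DMSO, 14.4 kb with ATRA, 10.3 kb with Corin and 17.6 kb with both drugs. TGM2, the tissue transglutaminase gene and a classical retinoid target, had 5 ATRA-only and 1 Corin-only region. None of the ATRA-only ones had a DMSO peak, and 2 of the 5 had a combination peak. Of the 5, 1 lay within TGM2. Its start site lay under an ATRA peak and no Corin peak. The strongest, whose 200 bp window chr20:38182326-38182525 is shown with a PU.1 match in capitals, had a −log10 q of 9.16 and lay 16827 bp upstream of the start site.
TGM2, ATRA-only: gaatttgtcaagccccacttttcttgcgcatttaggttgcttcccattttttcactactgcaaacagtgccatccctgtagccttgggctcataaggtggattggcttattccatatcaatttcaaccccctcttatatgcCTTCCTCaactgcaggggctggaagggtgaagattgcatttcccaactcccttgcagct

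Most other retinoid genes had few one-list regions, with CRABP2 as an exception. DHRS3, a retinaldehyde reductase gene, had 2 ATRA-only and 1 Corin-only, and RARB, a retinoic acid receptor gene, had 1 and 0. At RARB the covered length was 0.980 kb in DMSO, 3.36 kb with ATRA, 1.22 kb with Corin, and its one ATRA-only region had a −log10 q of 0.842. In the other direction CRABP2, a carrier protein of retinoic acid, had 2 ATRA-only and 5 Corin-only regions. The Corin-only ones reached a −log10 q of 14.2. No region of either class lay within the gene. RARA, the receptor gene for retinoic acid of the alpha type, had 0 and 2, and PRAM1, an adaptor gene of myeloid cells, had 1 and 3. The retinoic acid hydroxylase genes CYP26A1 and CYP26B1 had 0 of either class.

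Myeloid effector genes had more one-list regions of both classes than the mean gene, in proportions near those over all genes. The 20 genes had 63 Corin-only and 27 ATRA-only regions (60 and 26 distinct ones), a mean of 3.15 and 1.35 per gene. The Corin-only share was 70.0% (59.9 to 78.5%), close to the 66.3% over all genes. More Corin-only regions were found at 14 of the 20, or 70.0%, beside 39.2% of all genes, and more ATRA-only at 3. Shared regions were also more numerous near these genes, with a mean of 8.7 per gene beside 4.21 over all genes. Neither class was the more numerous at 8779 of all 19951 genes and at 3 of these 20. LYZ, which encodes lysozyme, had 9 Corin-only and 0 ATRA-only regions, with −log10 q between 1.71 and 3.92. All 9 were therefore weak peaks, and 3 of them had a combination peak. None of the 9 lay within LYZ. ITGAX, the CD11c integrin gene, had 6 and 0, with a −log10 q of up to 5.24. C5AR1, the receptor gene of complement C5a, had 5 and 0, all 5 with a −log10 q of at least 5 and a combination peak. CD14, the co-receptor gene for bacterial lipopolysaccharide, had 6 Corin-only and 1 ATRA-only region, none of them within the gene. FCGR1A, which encodes the high-affinity Fc receptor CD64, went the other way with 4 ATRA-only and 1 Corin-only, NCF4, an NADPH oxidase subunit gene, had 6 and 5, and ITGB2, the CD18 integrin gene, had 1 and 0. Of the 4 ATRA-only regions of FCGR1A, 1 lay within the gene. FCGR1A has near-identical copies, so reads there may be shared between them.

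The 14 myeloid transcription factor genes had 48 Corin-only and 15 ATRA-only regions. The Corin-only share was 76.2%, and its interval (64.4 to 85.0%) holds the 66.3% over all genes. More Corin-only regions were found at 10 of them, or 71.4%, beside 39.2% of all genes, and more ATRA-only at 2. The mean number of shared regions was 5.43 per gene, beside 4.21 over all genes. ZEB2, a zinc finger repressor gene of monocyte development, had 11 Corin-only and 2 ATRA-only regions. Of the 11, 10 lay within the gene and 5 had a combination peak. GFI1, whose product brings LSD1 and CoREST to DNA, had 7 and 2, and SPI1, which encodes PU.1, had 6 and 1. None of the GFI1 regions lay within that gene, while 5 of the 6 Corin-only regions of SPI1 lay within SPI1. All 6 Corin-only regions of SPI1 had a combination peak and none a DMSO peak. The covered length at SPI1 was 22.7 kb in DMSO, 24.4 kb with ATRA, 28.8 kb with Corin. ID2, an inhibitor of basic helix-loop-helix factors, had 2 ATRA-only and 0 Corin-only regions and EGR1, an immediate early gene, 1 and 0. The start sites of ZEB2, RUNX1 and BCL6 lay under an ATRA peak and no Corin peak, and that of ID2 under a Corin peak and no ATRA peak.

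The genes of the complexes named in the study's title showed the start site pattern. Among 12 genes of CoREST members and of p300 and its paralogue, 19 Corin-only and 5 ATRA-only regions were counted. The Corin-only share was 79.2%, with an interval (59.5 to 90.8%) that holds the 66.3% over all genes. More Corin-only regions were found at 6 of the 12 and more ATRA-only at 0, where 39.2% and 16.8% of all genes had them. ZNF217, a CoREST-associated zinc finger gene, had 6 Corin-only and 1 ATRA-only region. KDM1A, which encodes LSD1 itself, had 3 and 1, and CREBBP, the paralogue of p300, 2 and 0. The start sites of 5 of the 12, RCOR1, RCOR3, HMG20B, PHF21A and EP300, lay under an ATRA peak and no Corin peak, where 11.9% of all start sites did. Of these 5, the combination list covered HMG20B, PHF21A and EP300, and the DMSO list covered all but HMG20B. All of the 12 start sites but that of CREBBP lay under an ATRA peak. Over all genes an ATRA peak covered 9590 start sites, of which 2368 had no Corin peak.

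The remaining lists gave smaller numbers. The 12 interferon-stimulated genes had 15 ATRA-only and 14 Corin-only regions, a Corin-only share of 48.3% (31.4 to 65.6%) beside 66.3% over all genes. MX1, an antiviral GTPase gene, and IRF1, an interferon regulatory factor gene, had 3 ATRA-only and 0 Corin-only each. The regions of MX1 reached a −log10 q of 11.6, and none of the 3 had a DMSO peak. The start site of STAT2, a signal transducer of interferons, lay under an ATRA peak and no Corin peak. Of the others BST2, which encodes tetherin, and ISG15, a ubiquitin-like protein gene, had more Corin-only regions, at 3 against 1 and 2 against 0. The 12 stem and progenitor genes had 18 Corin-only and 6 ATRA-only regions (16 and 5 distinct ones), with 5 and 0 at MYB, a progenitor transcription factor gene, 4 and 1 at MEIS1, a HOX partner gene, and 3 and 0 at CDK6, a cell cycle kinase gene. KIT and BCL2 had 1 ATRA-only and 0 Corin-only. The start sites of MYB, MEIS1 and KIT lay under an ATRA peak and no Corin peak. Their Corin-only share of 75.0% became 44.4% with the same number of peaks in both lists, a setting that also took the share over all genes from 66.3% to 52.8%. The 12 neuronal genes, of the kind silenced by REST and CoREST in other tissues, had 8 Corin-only and 5 ATRA-only regions, a Corin-only share of 61.5%, and a mean below that of all genes in both classes. GRIN1 and CHRNB2 had 2 Corin-only and 0 ATRA-only regions, and SCN2A and SNAP25 had 1 ATRA-only and 0 Corin-only. The CHRNB2 start site lay under an ATRA peak and no Corin peak.

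**Figure D5:**
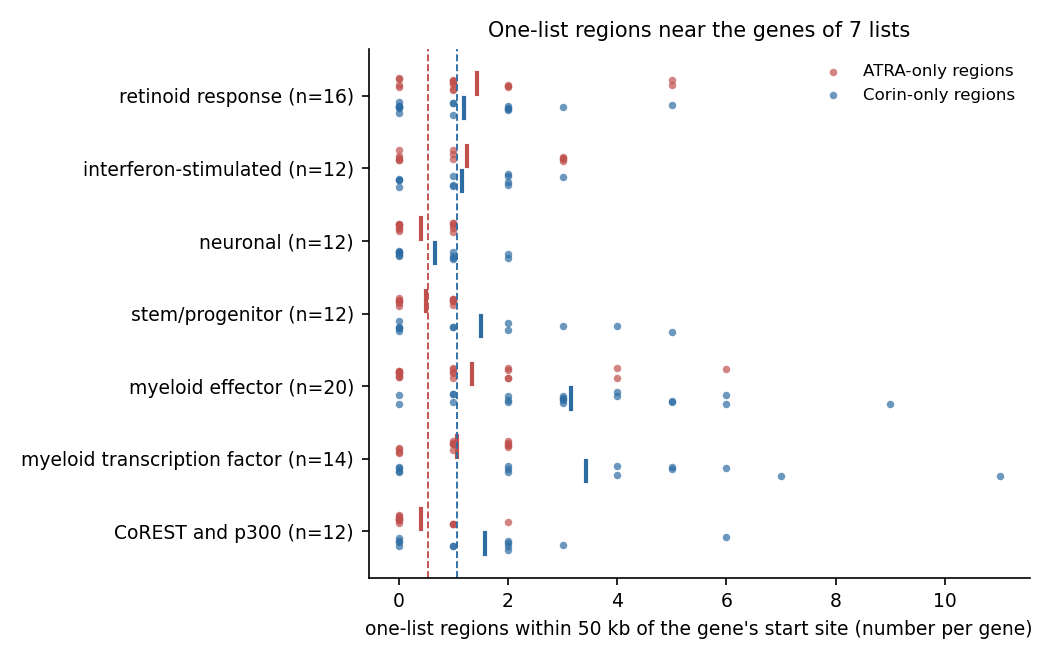
Number of ATRA-only (red) and Corin-only (blue) regions within 50 kb of the start site of each gene in 7 lists; points are genes, spread vertically for visibility, short bars are list means and dashed lines are the means over all protein-coding genes (0.541 and 1.07). The blue points of the myeloid lists reach 9 and 11 regions, and the red and blue means lie close together for the retinoid response and interferon-stimulated genes.

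Motif matches differed between the classes in windows of 300 bp around the summits. PU.1 is the ETS factor that opens myeloid enhancers, and its motif GAGGAAG was found in 18.0% of the ATRA-only windows (17.2 to 18.8%). In the Corin-only windows it was found in 11.9% (11.4 to 12.4%), and over all regions in 14.1%. The interferon regulatory factor motif, the pair of GAAA blocks, was also more frequent in ATRA-only windows, at 5.75% (5.30 to 6.25%) compared with 4.46% (4.15 to 4.80%) and 4.34% over all regions. The motif of AP-1, the FOS and JUN dimer, TGANTCA, was found in 8.42% of the ATRA-only (7.87 to 8.999%) and 12.6% of the Corin-only windows (12.1 to 13.1%), compared with 10.02% over all regions. The GFI1 core AAATCA was found in 16.2% (15.4 to 16.9%) and 21.8% (21.1 to 22.4%), compared with 16.2% over all regions. These intervals of the classes do not overlap for any of the 4 motifs. Base composition moved with the classes: the median GC content was 49.0% in ATRA-only and 46.3% in Corin-only windows. In windows with a GC content of 40 to 50% the order was the same. The shares there were 17.1% and 12.2% for PU.1, 7.19% and 4.76% for IRF, 9.53% and 13.9% for AP-1, and 19.7% and 22.3% for GFI1. Over all regions of that GC content they were 13.6% for PU.1, 6.08% for IRF, 12.3% for AP-1 and 21.2% for GFI1. The Corin-only share for GFI1 (21.4 to 23.3%) was thus close to that over all regions of like GC content.

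Of the other motifs, C/EBP and the nuclear receptor motif were close between the classes. C/EBP matches (TTGCNNAA) were found in 15.9% of the ATRA-only and 16.8% of the Corin-only windows, RUNX matches (TGTGGT) in 23.1% and 24.9%, and the nuclear receptor motif AGGTCA in 23.8% and 24.0%. The intervals for RUNX (22.3 to 24.0% and 24.2 to 25.5%) did not overlap. The GC box GGGCGG was found in 8.99% (8.42 to 9.59%) and 6.35% (5.98 to 6.74%), compared with 20.9% of the shared windows. Direct repeats of this receptor motif with a spacer of 5 bases, the DR5 arrangement bound by retinoic acid receptors, were rare. The search took AGGTCA or one of its variants at either position, which were the variant AGTTCA, the variant GGGTCA and the variant GGTTCA. A match was found in 18 ATRA-only windows, or 0.194% (0.123 to 0.306%), and in 17 Corin-only windows, or 0.108% (0.0671 to 0.172%), compared with 0.112% over all regions. The intervals of the classes overlap, the counts are small and the difference was not tested. Among regions with no DMSO peak a match was found in 16 of 6392 ATRA-only windows, or 0.250% (0.154 to 0.406%). For Corin-only windows it was 13 of 13042, or 0.0997% (0.0583 to 0.170%). Over all regions with no DMSO peak it was 38 of 24520, or 0.155%. The intervals of the classes overlap here as well, and this difference was not tested either. Of the 18 ATRA-only regions with a match 14 had a combination peak and 2 a DMSO peak, and of the 17 Corin-only regions 13 and 4. The strongest ATRA-only one, with a −log10 q of 18.4, lay 4633 bp from a start site of H2AC25, a histone gene. It held 2 matches, of which 1 was chr1:228452618-228452634. That match is shown as it reads on the plus strand, with the half-sites in capitals, beside those of the regions nearest to TRERF1 and MPP3.
H2AC25 side, ATRA-only: TGACCCaacccTGACCC
TRERF1 side, ATRA-only: TGACCTctgttTGACCT
MPP3 side, ATRA-only: TGACCCaagacTGACCT
The strongest Corin-only region with a match lay 238217 bp from a TFAP2C start site, with a −log10 q of 25.4 and no peak in the DMSO or combination list. Its 200 bp window is chr20:56867590-56867789, and capitals mark the repeat with its spacer, a C/EBP match and a RUNX match that overlaps its end.
TFAP2C side, Corin-only: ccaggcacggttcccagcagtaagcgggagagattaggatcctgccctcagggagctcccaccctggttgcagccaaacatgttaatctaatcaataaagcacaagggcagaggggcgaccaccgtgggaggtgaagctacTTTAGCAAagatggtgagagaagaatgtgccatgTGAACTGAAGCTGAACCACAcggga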

How the data were processed

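The 4 deposited lists hold H3K4me2 peaks of U-937 cells, 1 list per treatment. Per the submitters' processing notes, reads were handled with Trimmomatic, Bowtie2, Picard and MACS2 on hg38; versions and the peak threshold are not given in the sources used here. Each deposited peak has a score (10 times the −log10 p, capped at 1000), a fold enrichment (a ratio to input), −log10 p, −log10 q and a summit offset, all made by the authors. A deposited −log10 value was used only to rank or filter peaks, and with the fold to recover fragment counts at summits, solved for 100% of the ATRA and Corin peaks within 0.001.

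ATRA and Corin peaks sharing at least 1 bp were merged with Python 3.11.15, numpy 2.4.6, pandas 2.3.3 and scipy 1.17.1, and the interval and depth code was tested on simulated data. Distances run from a region's edge to start sites of protein-coding and lncRNA genes of GENCODE release 44. Gene windows span 50 kb on either side of the canonical start site of 19951 protein-coding genes, and neighbouring genes can share regions, which then count for each. Motifs were matched on either strand of hg38, read with pysam 0.24.0. Shares have 95% Wilson intervals.

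The named regions are the 6 strongest of each class and the 4 strongest over a coding start site. The named genes are the 6 with the largest excess of each class, skipping any within 100 kb of one taken, and in each list up to 3 members with the largest excess in each direction and those with the start site under 1 list only; further list members and the printed windows were chosen after their values were seen. Members, gene lists, motifs and rules were chosen with earlier results of these data known. The settings varied were a threshold of 5 on the −log10 q of both lists or of the side with the peak, equal numbers of peaks, lowest backgrounds made equal (Corin fragments thinned to 0.927 of their number, −log10 p of at least 5), merging within 1 kb, single peaks under 50% overlap, other windows, and, added after the data were examined, windows of like GC content. Results per library were not analysed here. Some items that these rules name are not reported here.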

Additional observations from a re-analysis of the deposited data

How the results depend on the processing

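No paired analysis was possible because each treatment has 1 pooled list, and for the same reason no replicate could be left out. Of 98 alternative values for 21 results, 57 stayed close to the main value, 34 moved beyond it by more than counting error or 1.5 times, and 7 changed direction. The cause was not tested for any of them beyond what a setting does by construction. The number of ATRA-only regions moved to 4194 when a −log10 q of 5 was required on the side with the peak and to 5826 when peaks within 1 kb were merged, and the number of Corin-only regions to 5635 and 7569. With that threshold in both lists the Corin-only number was 8336. Corin-only regions were the more numerous in each of these settings and with lowest backgrounds made equal, and the fewer with equal numbers of peaks (10971 against 11265).

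The difference in shares within 1 kb of a start site (ATRA-only minus Corin-only) turned to -3.73 percentage points with a window of 2.5 kb. The ratio of median distances (ATRA-only over Corin-only, 1.39) was 1.22 with the threshold in both lists, 1.28 with it on the side with the peak, 1.05 with peaks within 1 kb merged and 1.51 for protein-coding start sites alone. The ratio of median widths (0.951) was 0.899 and 0.825 under those thresholds, 0.887 with equal numbers of peaks and 0.893 with peaks within 1 kb merged. The difference in DMSO peaks (13.6 points) was 19.2 and 17.8 under the thresholds and 11.5 with peaks within 1 kb merged. That in combination peaks (-6.12 points) was -4.78 and -9.71 under the thresholds, -7.58 with equal numbers of peaks and -8.49 with merging.

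The Corin-only share of one-list regions moved near all genes as well as near the listed ones. Over all genes (66.3%) it was 53.2% with the threshold in both lists, 59.4% with it on the side with the peak, 52.8% with equal numbers of peaks, and 72.8% and 65.3% in windows of 10 and 100 kb. For interferon-stimulated genes (48.3%) it passed to the other side of 50%, with 52.6% and 53.3% under the thresholds and 66.7% and 54.9% in windows of 10 and 100 kb. It stayed below the share over all genes in each of these settings, though only just with the threshold in both lists. For stem and progenitor genes (75.0%) it passed to 43.8% with the threshold in both lists and to 44.4% with equal numbers of peaks. For myeloid effector genes (70.0%) it was 54.4% and 59.0% under the thresholds and 56.0% with equal numbers of peaks, each near the value over all genes. For myeloid transcription factor genes (76.2%) it was 59.3% with the threshold in both lists and 63.04% with equal numbers. In windows of 10 kb it was 90.9% for CoREST and p300 genes and 100% for neuronal genes, each over few regions. Of the neuronal genes only CHRNB2 and VGF had a one-list region that close, the nearest at 7299 and 7850 bp. Motif differences (ATRA-only minus Corin-only) kept their sign for the 4 motifs described. In windows of 200 bp they were 3.10 points for PU.1, 0.640 for IRF, -2.15 for AP-1 and -4.45 for GFI1, and at a GC content of 40 to 50% they were 4.94 for PU.1, 2.43 for IRF and -2.63 for GFI1. There the differences of the GC box and of the E-box CACGTG reversed, to -0.0217 and -0.127 points. The number of start sites under 1 list only and the ratio of shared lengths stayed within 1.5 times under each setting run for them. Peak summits held 21 fragments at the median in ATRA-only and 20 in Corin-only regions, compared with 58 and 52 in peaks of shared regions. Making the lowest backgrounds equal kept both numbers of one-list regions within 1.5 times; other measures of depth were not matched.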
